A study of Mus musculus with 9 samples.

Results

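The comparison described here sets regulatory T cells (Tregs) from the arthritic synovium against Tregs from the lymph node that drains it, in the same mice. It uses 6 of the study's 9 RNA sequencing libraries, taken by their titles: synovial Tregs of arthritis mice 1, 2 and 3, and draining node Tregs of arthritis mice 1, 2 and 3. All mice were wild type (WT), and the arthritic ones had collagen-induced arthritis, a joint disease provoked by immunization against collagen. The other 3 libraries, Tregs from draining nodes of control mice that had no treatment, gave a reference level. The sorted cells were those bearing YFP from a Foxp3 reporter. The synovial cells came from paws, so the tissue taken was wider than the synovial membrane. The strain, sex and age of the mice and the reporter allele are not given in the sources used here.

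Tregs are CD4 T cells that depend on the transcription factor Foxp3 and restrain other immune cells. In lymph nodes many of them recirculate in a resting state. In inflamed tissue they are mostly activated, and signals from the antigen receptor, TNF family receptors and cytokines reach their nucleus through NF-kappa B, AP-1, CREB and STAT factors, which also switch on their own inhibitors.

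The 6 libraries held 11844390 to 12855435 reads in genes, and between 12409 and 13118 genes had a read. Values are the authors' normalized read counts, and n is 3 mice per group throughout. On the first principal component, with 53.1% of the variance, the synovial libraries lay between -117 and -94.0 and the 6 node libraries between 34.8 and 73.4. Cd3e, a chain of the T cell receptor complex, measured 11148, 9547 and 12335 in synovium against 10730.3, 10640.2 and 11734 in the nodes (difference -0.0098 ± 0.11, adjusted p = 0.955). Cd8a had no read in 5 of the 6 libraries, while Cd8b1 measured 125, 113 and 219 in synovium against 123, 160 and 234 in the nodes. Foxp3 itself measured 443, 413 and 538 in synovium against 222, 294 and 291 in the nodes, without overlap. Its difference of 0.79 ± 0.30 was not called (limma, adjusted p = 0.0597). It passed in the limma fit of the 6 arthritic libraries alone with each mouse as a block (adjusted p = 0.0232). That fit differs in 2 ways, the block and the absence of the control libraries. Flicr shares exon positions and strand with Foxp3. Markers of other cells were checked because a sort can carry some along. The 12 fibroblast markers other than Thy1, which T cells share, and Prg4, read in every library, summed to 129, 106 and 2581 in synovial libraries 1, 2 and 3 and to 15.7, 16.4 and 204 in the nodes, so fibroblast RNA was highest in synovial library 3. The 15 macrophage markers summed to between 103 and 365 in synovium and between 192 and 1299 in the nodes. 6 of them had no read in synovium, Emr1 and Mrc1 included. Of 5 tested, 1 was called higher and 1 lower (median log2 fold change -3.05). The higher one was Cd14, at 70.5, 196 and 66.3 in synovium against 0, 0 and 14.9 in the nodes (not called by DESeq2). Apoe went the other way, at 88.2, 45.8 and 23.6 in synovium against 626, 130 and 710 in the nodes. The 14 dendritic markers summed to between 30330.5 and 41051 in synovium and between 8414 and 12026 in the nodes, and 5 of 8 tested were higher and 0 lower: Zbtb46 measured 537, 538 and 607 in synovium against 4.35, 0 and 62.9 in the nodes, and Cd83, Cd74, Cst3 and Xcr1 were the others. Cd83, at 15501, 21390 and 13721, and Cd74, at 12582, 14727 and 11868, made up most of the synovial sums. The class II genes H2-Aa, H2-Ab1 and H2-Eb1 were tested and not called. H2-Aa measured 116, 31.7 and 20.2 in synovium against 74.8, 53.9 and 80.4 in the nodes. H2-Ab1 and H2-Eb1 had higher means in synovium. Clec9a and Itgax were at 0 in synovium. The 11 neutrophil markers summed to between 659.6 and 1016 in synovium and between 0.870 and 27.9 in the nodes. Irg1, at 831, 925 and 535 in synovial libraries 1, 2 and 3, made up most of the synovial sums. Both tested members, Irg1 and Ltf, were higher. Ltf measured 32.0, 27.0 and 107 in synovium against 0, 18.3 and 0 in the nodes (adjusted p = 0.0298, a call lost in some fits that left out 1 library), S100a8 4.41, 34.1 and 1.12 in synovium, and Csf3r and Elane were at 0 there. The 10 mast cell and basophil markers summed to between 667 and 1047 in synovium and between 52.0 and 161 in the nodes, and 7 had no read in synovium. Kit, at 402, 835 and 523 in synovium against 52.2, 14.4 and 50.7 in the nodes, was higher, and so was Hdc. Cpa3, the other one tested, went the other way and was not called. It measured 4.41, 0 and 14.6 in synovium against 34.8, 16.4 and 35.8 in the nodes. The 8 keratinocyte markers summed to between 1223 and 1554 in synovium and between 462 and 599 in the nodes, with Perp, Sfn and Epcam higher, Krt10 lower and Krt5 at 0. The part of such cells in the results below was not tested. In bulk samples fewer cells of a type and less RNA per cell cannot be told apart.

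Of 11357 genes tested, 3844 (33.8%) differed between synovial and node Tregs of arthritic mice, 2034 (17.9%) higher and 1810 (15.9%) lower in synovium. A gene was called when limma's moderated test on log2(normalized value + 1) gave a Benjamini-Hochberg adjusted p under 0.05. Large changes were mostly rises: 236 called genes (2.08%) were at least 16-fold higher and 65 (0.572%) at least 16-fold lower. Libraries of the groups did not overlap in 5477 genes (48.2%), and 2538 (22.3%) were called in every fit that left out 1 library. The scatter of group means shows the wider spread above the diagonal. The median log2 fold change of all genes tested was -7.25e-05, the value against which the lists below are read. That centre is set by the authors' normalization: with each library scaled to the same total, an alternative added after the data were seen, it moved to -0.31, and 1379 genes were higher and 3324 lower. Log2 fold changes below are relative to the authors' centre.

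**Figure D1:**
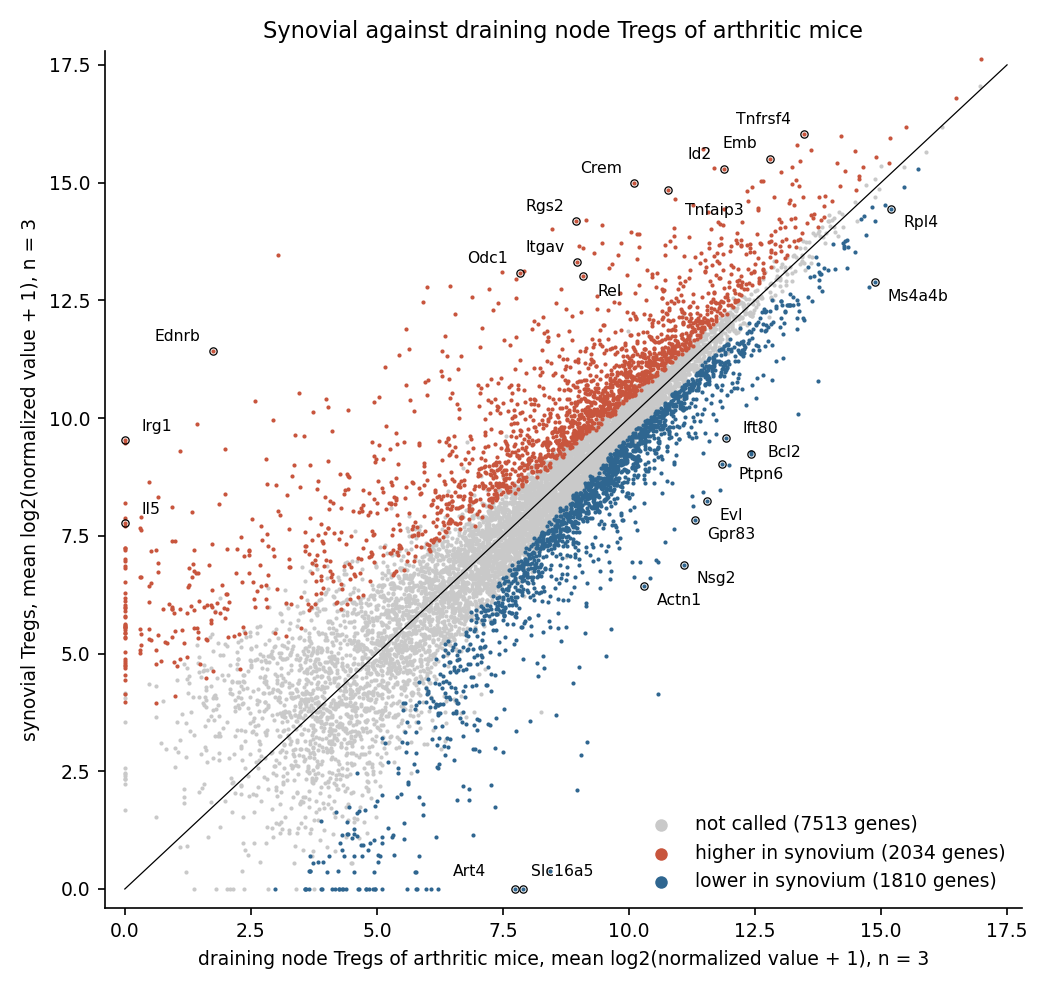
Mean log2(normalized value + 1) of each of the 11357 genes tested, draining node Tregs of arthritic mice on the horizontal axis and synovial Tregs on the vertical axis, 3 libraries each. Red points are the 2034 genes called higher and blue points the 1810 called lower in synovium, the line marks equal levels, and circled genes are named in the text. More red than blue points lie far from the line.

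Among genes higher in synovium the smallest p-values belonged to inhibitors and factors of NF-kappa B and cAMP signalling, an integrin, and a polyamine enzyme. Tnfaip3 measured 27828, 26322 and 34566 in synovial libraries 1, 2 and 3 and 1704, 1647 and 1926 in node libraries 1, 2 and 3, a rise of 4.06 ± 0.12 (log2 fold change ± SE, as for all such values; limma, adjusted p = 3.2e-09). It encodes A20, a ubiquitin editing enzyme that restrains NF-kappa B. Crem measured 35472, 34007 and 28150.5 in synovial libraries 1, 2 and 3 and 1029, 1357 and 950.4 in node libraries 1, 2 and 3, a rise of 4.88 ± 0.16 (adjusted p = 3.2e-09). Crem encodes a cAMP-responsive transcription factor, and all 3 synovial libraries were far above the node libraries. Odc1, the ornithine decarboxylase that starts polyamine synthesis, measured 7654, 9863 and 8594 in synovium against 251, 246 and 191 in the nodes (5.24 ± 0.19). Rgs2, which shortens G protein signals, measured 22039, 14663 and 19881 in synovium against 566, 592 and 366 in the nodes (5.22 ± 0.19). The groups did not overlap for any of these genes. Itgav, the integrin chain alpha V, rose by 4.34 ± 0.15, Rel, which encodes the NF-kappa B subunit c-Rel, by 3.93 ± 0.15, the costimulatory receptor Tnfrsf4 (OX40) by 2.56 ± 0.097, and Emb, the membrane glycoprotein embigin, by 2.72 ± 0.10. Control node Tregs stood with the arthritic nodes: Crem measured 757, 568 and 552 there, and Odc1 245, 197 and 163.

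Among genes lower in synovium the smallest p-values belonged to a survival gene and regulators of the cytoskeleton and of receptor signalling. Bcl2 measured 548, 619 and 633 in synovial libraries 1, 2 and 3 and 5446, 5703 and 5376 in node libraries 1, 2 and 3, and it fell by 3.20 (SE 0.11), adjusted p = 3.2e-09. Bcl2 protects resting lymphocytes from death. Nsg2, a vesicle trafficking gene known from neurons, measured 123, 91.6 and 143 in synovium against 2503, 2125 and 1922 in the nodes. Evl, an actin regulator of the Ena/VASP family, measured 374, 229 and 312 in synovium against 3044, 3036 and 2932 in the nodes. Nsg2 fell by 4.20 (SE 0.18) and Evl fell by 3.32 (SE 0.16), with every synovial library below every node library. Gpr83, an orphan receptor known from Tregs, fell by 3.48 (SE 0.18), Actn1, the actin crosslinker alpha-actinin 1, fell by 3.88 (SE 0.24), Ptpn6, which encodes the phosphatase SHP-1, fell by 2.82 (SE 0.18), and Ift80, an intraflagellar transport gene, fell by 2.33 (SE 0.13). Exons of Evl overlap Degs2 on the opposite strand. The library kit keeps strand, but whether the counting used it is not stated in the sources used here. Coro1a, Arhgdib, Ppp1r15a, Sqstm1, Dgka, Il16, Psmb9, Gls2, Rpl4 and Rpl32, named below, also share exon positions with another gene, so their values are uncertain to that extent.

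**Figure D2:**
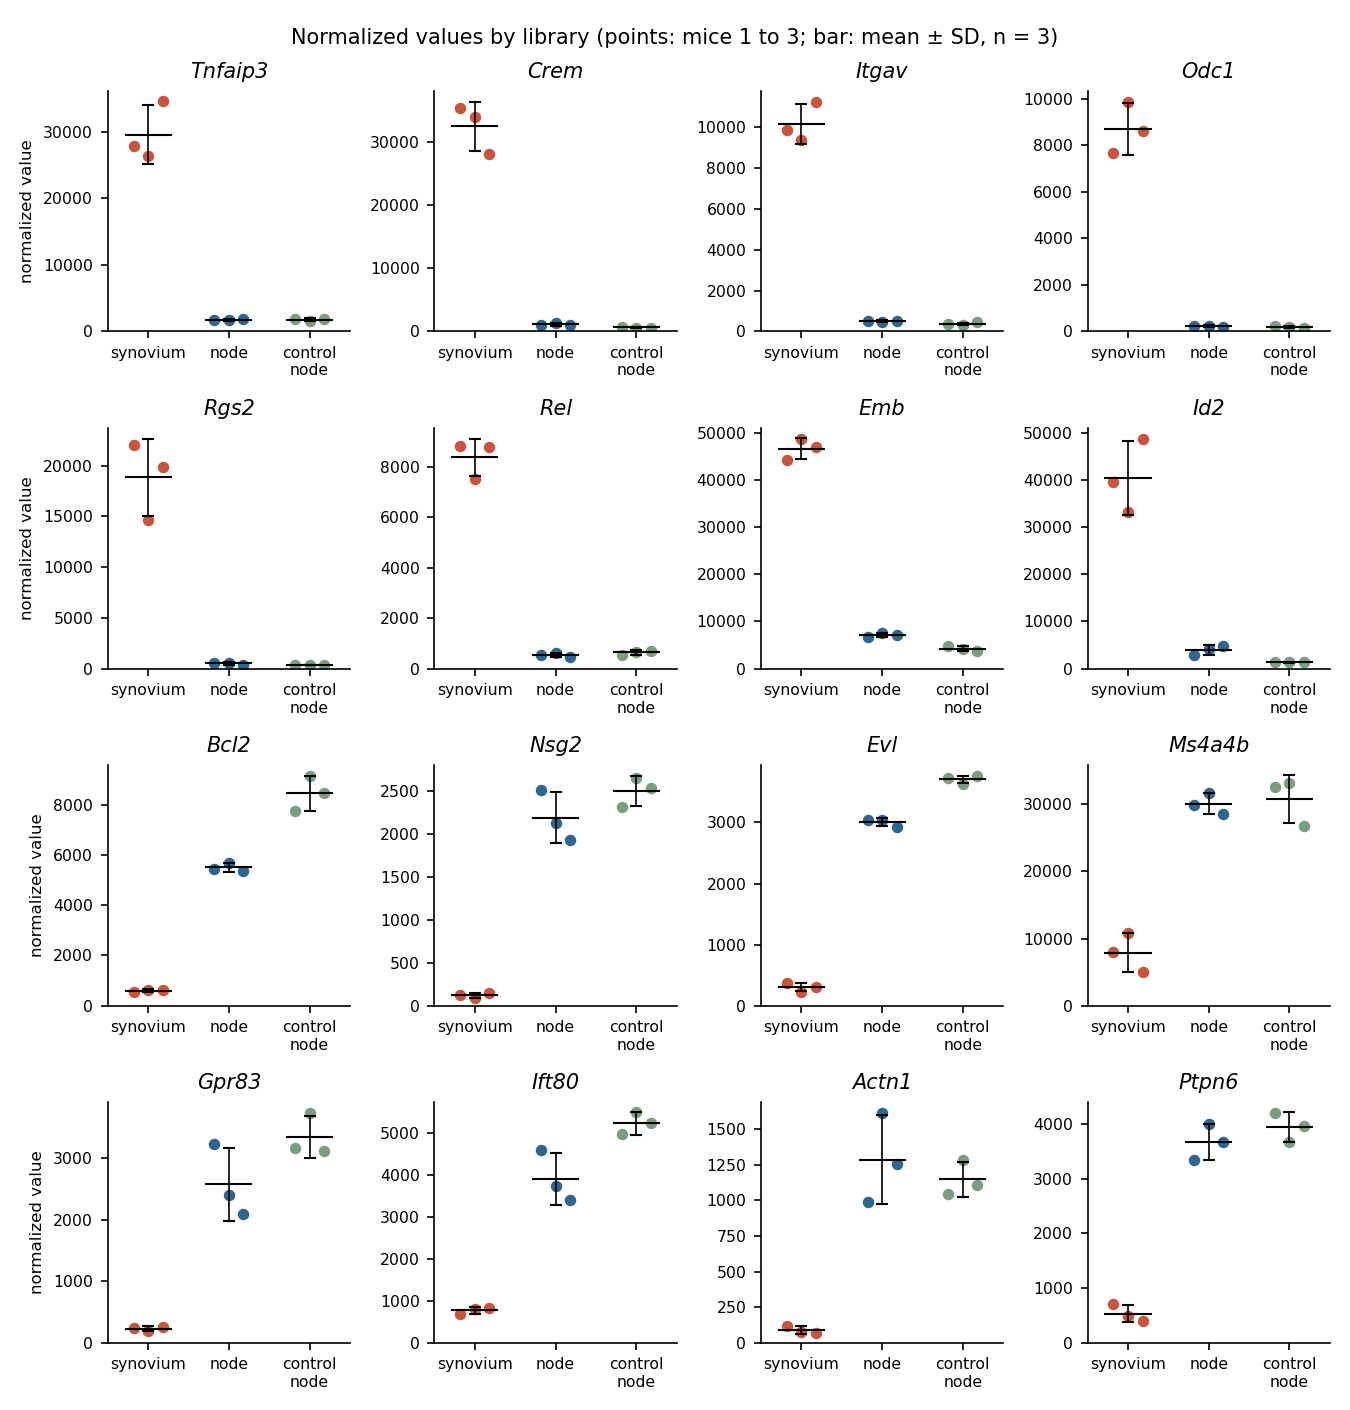
Normalized values of 16 genes in each library of synovial Tregs (red), node Tregs of arthritic mice (blue) and node Tregs of control mice (green). Points are mice 1 to 3 from left to right and bars the mean ± SD. The upper 8 genes are higher and the lower 8 lower in all 3 synovial libraries than in all 6 node libraries.

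By the size of the change in mean normalized value, Malat1, a nuclear long noncoding RNA, led the gains: it measured 187026, 203603 and 219845 in synovium against 116077, 136881 and 137794 in the nodes and rose by 0.64 ± 0.11, but not under quantile normalization (adjusted p = 0.435). Next came Tnfrsf4, at 66783 ± 5433 against 11324 ± 815 (mean ± SD), and Tnfrsf9 (4-1BB, another costimulatory receptor), at 56322 ± 22530.3 against 2834 ± 323. Ifngr1, the ligand-binding chain of the interferon gamma receptor, measured 55592, 67117 and 48771 in synovium against 9013, 11254 and 10997 in the nodes. The other gains in the leading 10 were H3f3b, which encodes histone H3.3, with 1.78 ± 0.12, Fth1, the ferritin heavy chain, with 2.09 ± 0.11, Emb, Dusp1, Id2 and Icos, the inducible costimulator, with 2.07 ± 0.16. The largest losses were in Ms4a4b and Ms4a6b, membrane proteins of the MS4A family. Ms4a4b measured 7949, 10774 and 5012 in synovium against 29974, 31776 and 28575 in the nodes, and Ms4a6b 7779, 7791 and 5809 in synovium against 28429.9, 29264 and 25607 in the nodes. Ms4a4b fell by 2.00 (SE 0.21) and Ms4a6b fell by 1.97 (SE 0.13). Large losses were also seen in Rpl4, Rplp0 and Rps19 of the ribosome, the elongation factor Eef1a1 (-0.55 ± 0.10), Shisa5, a membrane protein of the endoplasmic reticulum (-0.44 ± 0.11), and the actin regulators Coro1a (-0.80 ± 0.11) and Arhgdib (-0.56 ± 0.11).

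Some genes were read in only 1 of the 2 arthritic groups. With a mean of 50 or more in one group, 33 genes had no read in the 3 arthritic node libraries and 8 none in the synovial ones. Irg1 (now Acod1), the enzyme that makes itaconate, measured 831, 925 and 535 in synovium and was at least 282-fold higher, counting 3 reads per library as the floor. It is also known from myeloid cells and made up most of the synovial sums of the neutrophil marker list given above. Adora2b, a receptor for adenosine, measured 199, 176 and 262 (at least 78.5-fold). Cyp11a1, the enzyme that starts steroid synthesis from cholesterol, measured 101, 56.4 and 266 (at least 52.3-fold). In the control nodes it measured 3.01, 0 and 0, and some others of the 33 had reads there too. The enzymes Gls2, a glutaminase, and Gad1, which makes GABA from glutamate, were at least 55.3-fold and 34.3-fold higher, Fzd4, a Wnt receptor, 26.4-fold, and Hhex, a homeobox factor, 27.6-fold. Lum, Timp3, Sema3a, Thbs1, Thbs4, Sdc2 and Nid1 belonged to the 33 mainly through synovial library 3, the one with the most fibroblast RNA: Thbs1 was 13.2, 0 and 388 and Lum 0, 0 and 207 in synovial libraries 1, 2 and 3. Of these 7 genes Nid1 alone was called, and not without synovial library 3 (adjusted p = 0.0505) or 4 of the 5 other arthritic libraries. In the other direction, Slc16a5, a monocarboxylate carrier gene, measured 173, 222 and 344 in the nodes and was at least 72.5-fold lower. Art4, an ADP-ribosyltransferase gene, measured 149.6, 267 and 241 (at least 64.5-fold), and Ampd1, an AMP deaminase, 105, 76.0 and 35.8 (at least 21.3-fold).

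Some of the most abundant messages changed rank between the tissues. On the scale of normalized value per exon length, scaled to sum to 1000000 in each library, B2m and Tmsb4x, the light chain of class I molecules and an actin-binding peptide, ranked 1 and 2 in both tissues. Tnfrsf4 ranked 3 in synovium, at 11524 ± 838, and 39 in arthritic nodes, at 2392 ± 195. Nfkbia, the NF-kappa B inhibitor I kappa B alpha, ranked 9 against 86, and H3f3b 10 against 60. Rpl32 went the other way, from rank 5 in the nodes, at 6825 ± 312, to 34 in synovium, at 2922 ± 396. Rpl4 and Rplp0 ranked 8 and 10 in the nodes and 40 and 39 in synovium.

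Transcription factors of the AP-1 and CREB family rose without exception among the called: 11 of 19 tested were higher and 0 lower, with a median of 0.95, beside 17.9% higher and 15.9% lower over all genes. The same shares over all genes belong beside the counts of the other lists. Genes below the filter on low values were not tested, here and in the other lists, which leans the tested members towards those high in 1 tissue. Fosl2 measured 5317, 5675 and 3455 in synovium against 63.5, 152 and 83.9 in the nodes, a rise of 5.64 ± 0.47. Junb measured 23374, 16932 and 33029.7 in synovium against 2437, 2738 and 2243 in the nodes (3.26 ± 0.19), and Fosb, at 299.7, 256 and 662 in synovium, rose by 5.06 ± 0.71. Every synovial value of these genes exceeded every node value. Creb3l2, a membrane-bound factor of the secretory pathway, rose by 3.64 ± 0.43, and Batf, a partner of Jun proteins in effector T cells, by 1.51 ± 0.14. Creb1 differed by 0.13 ± 0.13, adjusted p = 0.486. Exons of Junb overlap Prdx2 on the other strand.

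Of 20 Id, E protein and Kruppel-like factors, 6 were higher and 2 lower (median 0.40), 40% called beside 33.8% over all genes. The Id proteins, which block E protein factors, moved apart. Id2 measured 39455, 33136 and 48709 in synovium against 2772, 4202 and 4699.7 in the nodes, and Id3 319.5, 358 and 296 in synovium against 3705, 1822 and 2134 in the nodes. Id2 rose by 3.39 ± 0.18 and Id3 fell by 2.91 (SE 0.22), so in the node the means of Id2 and Id3 were 3891 and 2554 and in synovium 40433 and 324. Klf4 rose by 5.58 ± 0.96 and Klf6 by 2.26 ± 0.13, while Klf3 fell by 1.67 (SE 0.27). The E protein gene Tcf3 differed by -0.38 ± 0.31, adjusted p = 0.372. Of 57 other transcription factors, 29 were higher and 8 lower (median 0.73). Epas1, the hypoxia factor HIF-2 alpha, rose by 6.07 ± 1.40, Pparg, a lipid-sensing nuclear receptor known from fat tissue Tregs, by 5.34 ± 1.33, and the Myc antagonist Mxi1 by 4.46 ± 0.40. Nr3c1, the glucocorticoid receptor, measured 12444, 17714 and 10166 in synovium against 1452, 1975 and 1634 in the nodes and rose by 2.97 ± 0.20. Gata1, a factor of red cells and mast cells, fell by 6.06 (SE 0.94) from a node mean of 591, Zbtb7b (ThPOK, a CD4 lineage factor) fell by 1.95 (SE 0.36) and Foxp1 fell by 1.17 (SE 0.15). Without node library 2, 5 of the 57 were called lower.

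Of the clock genes, 12 of 20 were higher and 2 lower (median 0.93). The 2 lower calls were 0 with the mouse as a block and without node library 1, 2 or 3, and 1 without synovial library 1, 2 or 3 or control library 2 or 3, each left out alone. Bhlhe40, a repressor of the clock and a T cell factor, measured 17919.8, 15468 and 24384 in synovium against 610.5, 562 and 526 in the nodes (5.06 ± 0.30). Nfil3 rose by 4.74 ± 0.41, Rora, a nuclear receptor known from tissue Tregs, by 3.88 ± 0.24, and Per1 by 2.21 ± 0.38. The core activator Clock differed by 0.39 ± 0.31, adjusted p = 0.372. At what time of day the tissues were taken is not given in the sources used here.

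Promoter sequences of these genes were searched for the letters that AP-1, CREB and NF-kappa B factors are known to bind, since genes of these factors and their inhibitors were among the rises. In the 250 bases before the start, TGANTCA (AP-1), TGACGTCA (the cAMP response element) and the kappa B letters (GGG, any 2 bases, then TTTCC) were sought on both strands in RefSeq promoters of the build GRCm38.p6, which matched 9020 of the 11357 genes tested. The cAMP response element stood in 2.90% of them, 4.25% of 1598 called higher and 1.52% of 1443 called lower. The AP-1 letters stood in 4.02%, 4.94% and 4.64%, and those of kappa B in 1.52%, 2.06% and 1.04%. Among 490 promoters of genes called higher by at least 4-fold, the shares were 3.27% for the cAMP response element, 7.35% for AP-1 and 3.27% for kappa B. For 243 promoters of genes called lower by at least 4-fold, they were 1.235%, 5.35% and 1.235%. Of all 27025 promoters of that length, 6.87%, 1.62% and 1.40% held the AP-1, cAMP and kappa B letters. The naming rules picked 104 higher genes with a promoter in the table, not all of them named here. Of these, 10 held the AP-1 letters, 4 the cAMP response element and 5 those of kappa B. At least 1 motif stood in 18, a share that was not counted over all genes tested. Nfkbia, picked for its abundance, is not among the 104. The windows shown were chosen after the matches were seen, because their genes are named here, and are written 5′ to 3′ on the gene's strand with the matched letters in capitals. In these windows no match overlaps another. Tnfaip3 (the first of its 2 starts in the table, chr10:19015411-19015556, minus strand) held AP-1 and kappa B letters. Nfkbia (chr12:55492657-55492686, minus strand), Rel (chr11:23771041-23771070, minus strand) and Cxcl2 (chr5:90903792-90903840, plus strand) held kappa B letters, Cxcl2 in 2 places. Nfkbia measured 35381, 32113 and 49508 in synovium against 8775, 7613 and 8334 in the nodes (2.22 ± 0.15). Dusp1 (chr17:26508598-26508625, minus strand), Ppp1r15a (chr7:45526269-45526290, minus strand) and Areg, which encodes the growth factor amphiregulin (chr5:91139528-91139555, plus strand), held the cAMP response element. Areg rose by 6.31 ± 0.61. Mt2 (chr8:94172529-94172555, plus strand) and Srxn1 (chr2:152105412-152105495, plus strand) held AP-1 letters. A match describes letters and does not show binding.
Tnfaip3: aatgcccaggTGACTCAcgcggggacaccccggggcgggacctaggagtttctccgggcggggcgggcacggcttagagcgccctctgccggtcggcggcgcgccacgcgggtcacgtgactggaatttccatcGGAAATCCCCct
Nfkbia: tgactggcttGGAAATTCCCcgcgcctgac
Rel: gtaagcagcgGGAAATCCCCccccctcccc
Cxcl2: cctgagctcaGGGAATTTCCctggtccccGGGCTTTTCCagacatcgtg
Dusp1: gtagggcgggTGACGTCAccgcccggtc
Ppp1r15a: gcctctccggTGACGTCAgcac
Areg: ggctggtccgTGACGTCAcgggcggtgg
Mt2: aaagggggtgTGACTCAgcgcgggggg
Srxn1: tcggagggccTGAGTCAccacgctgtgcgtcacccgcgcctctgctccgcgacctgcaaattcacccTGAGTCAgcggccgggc

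Feedback inhibitors of signalling changed by family. Of 21 dual specificity phosphatases, which switch off MAP kinases, and Sprouty family genes, 9 were higher, 3 lower and 9 not called (median 0.77). Dusp1, with the cAMP response element printed above, measured 38899.5, 41919.9 and 41484 in synovium against 4339, 2892 and 2869 in the nodes (3.62 ± 0.19). Dusp14 measured 2786, 2320.2 and 3170.0 in synovium against 137, 58.7 and 58.5 in the nodes (5.12 ± 0.56), and Dusp4 rose by 4.61 ± 0.33 and Dusp16 by 4.30 ± 0.48. The groups did not overlap in any of the 4. Dusp2, in contrast, measured 336, 243 and 319 in synovium against 671, 589.8 and 826 in the nodes and fell by 1.21 (SE 0.19), and Dusp6 differed by 0.021 ± 0.26, adjusted p = 0.96. Exons of Dusp1 overlap Ergic1 on the other strand.

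RGS proteins, which speed the switching off of G proteins, split evenly: 4 of 10 were higher and 4 lower (median 0.25). Rgs16 measured 2168, 2148 and 5753 in synovium against 235, 325 and 102 in the nodes (3.91 ± 0.42) and Rgs1 rose by 1.43 ± 0.24, while Rgs14 fell by 1.60 (SE 0.21) and Rgs19 fell by 1.36 (SE 0.15). Regulators of mRNA decay, which limit the life of inflammatory messages, had 12 of 23 members higher and 0 lower (median 0.55). Zfp36 (tristetraprolin) measured 11727, 6239.7 and 21556 in synovium against 3645, 4102 and 2734 in the nodes (1.76 ± 0.33), Zc3h12a (Regnase-1) rose by 2.22 ± 0.30 and Tob2 by 2.78 ± 0.26. Of 27 JAK, STAT and SOCS genes, 13 were higher and 2 lower (median 0.49), among them Jak2 (3.19 ± 0.15), Stat3 (2.43 ± 0.16), the kinase gene Pim1 (2.23 ± 0.19) and Cish (1.48 ± 0.16), an inhibitor of STAT5 signals. Exons of Stat3 and Stat5a overlap on opposite strands. With all libraries at 1 total, the counts of this list became 8 and 5, and the 2 lower calls were 0 without synovial library 1 or 2 or node library 2 or 3. Of 35 TRAF, cIAP and ubiquitin regulators, 16 were higher and 5 lower (median 0.52): Traf1 rose by 1.72 ± 0.15, Birc3 (cIAP2) by 1.56 ± 0.12 and Traf3 by 2.19 ± 0.31, and Traf5 fell by 1.40 (SE 0.17).

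The called receptor genes listed for 3 chromosome regions (GRCm38) were higher in synovium. Counts are over the genes listed for each region, and the lists do not hold every gene between the coordinates. In the IL-1 receptor cluster (chromosome 1, 39900913 to 40790687), 5 of 8 tested genes were higher and 0 lower. Il1r1, the signalling receptor for IL-1, measured 247, 329 and 603 in synovium against 49.6, 17.3 and 41.9 in the nodes (3.43 ± 0.68), and Il18rap, a chain of the IL-18 receptor, measured 1474, 1619 and 1935 in synovium against 147, 235 and 314 in the nodes (2.91 ± 0.40). Il1r2 rose by 2.98 ± 0.38, with a mean of 15985 in synovium and 1995 in the nodes. The means of Il1r1 were lower, at 393 and 36.3. Il1rl1, the IL-33 receptor, rose by 3.91 ± 0.39 and Il18r1 by 1.19 ± 0.12, while Il1rl2, between Il1r1 and Il1rl1, differed by -1.87 ± 1.53, adjusted p = 0.378, and Map4k4 and Mfsd9 at the ends were not called. In the chemokine receptor region (chromosome 9, 111019271 to 124147699), 7 of 11 listed genes tested were higher and 0 lower. Ccr1, a receptor for inflammatory chemokines, measured 3674, 2308 and 4739.9 in synovium against 43.5, 116 and 103 in the nodes (5.39 ± 0.93), and Ccrl2, an atypical receptor, 4002, 3366 and 2912 in synovium against 202, 236 and 212 in the nodes (3.97 ± 0.20). Xcr1, also a marker of dendritic cells, rose by 4.29 ± 0.45. Ltf, the lactoferrin gene of neutrophil granules at the edge of the region, is no receptor and is 1 of the 7. Of genes not called, Ccr3 and Ccr9 are receptors too, and Ccr9 had the lower mean in synovium. Ccr3 differed by 2.70 ± 1.21, adjusted p = 0.106, and Ccr9 by -1.30 ± 0.59, adjusted p = 0.108. Lztfl1 and Fyco1, genes of other kinds and not called either, differed by 0.73 ± 0.27, adjusted p = 0.0573 and -0.14 ± 0.19, adjusted p = 0.614. In the TNF receptor region (chromosome 4, 145213463 to 156059414), 6 of 9 listed genes tested were higher. Tnfrsf1b (TNF receptor 2), Tnfrsf8 (CD30) and Tnfrsf18 (GITR) rose by 2.04 ± 0.23, 3.29 ± 0.65 and 1.74 ± 0.098. Sdf4, which ends just before the start of Tnfrsf4 on the same strand and encodes a calcium-binding protein of the Golgi, measured 17425, 17878 and 19652 in synovium against 8558, 8308 and 8094 in the nodes and rose by 1.14 ± 0.088, while B3galt6 beside it differed by -0.17 ± 0.44, adjusted p = 0.802. In the type 2 cytokine region of chromosome 11, Il5 measured 176, 136 and 432 in synovium and 0 in every arthritic node library, while Rad50 between Il13 and Il5 fell by 0.56 (SE 0.12) and Irf1 differed by 0.047 ± 0.18, adjusted p = 0.874.

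**Figure D3:**
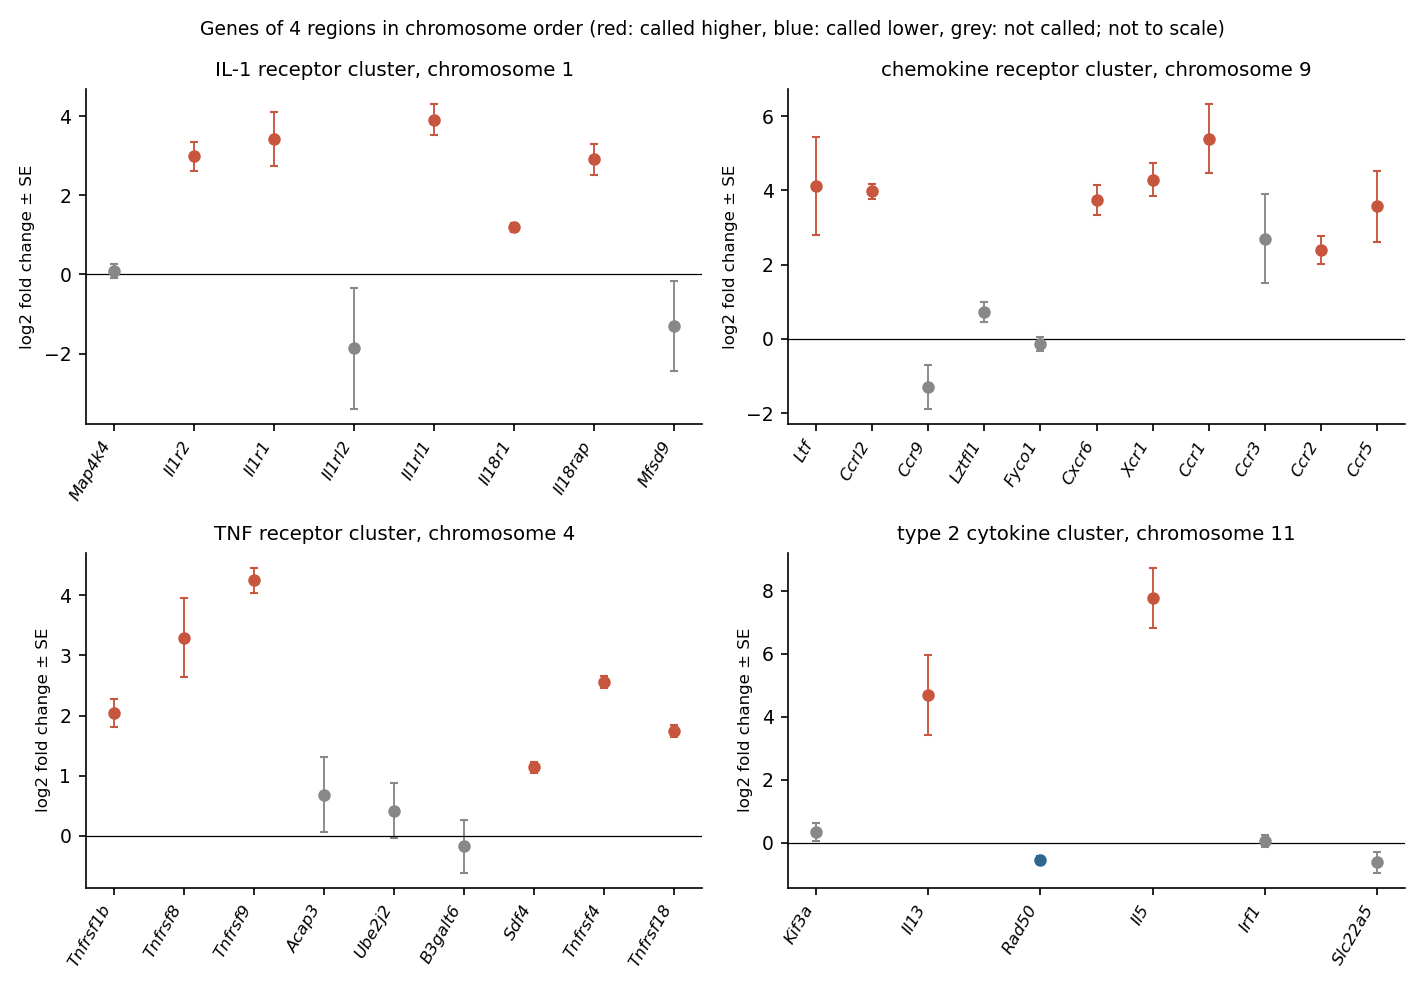
Log2 fold change, synovial over node Tregs of arthritic mice, with its standard error (bars). The tested genes listed for 4 regions are in chromosome order, evenly spaced. Red genes are called higher, blue lower and grey not called. Called receptor genes lie above 0 in 3 regions, and so do the called Ltf and Sdf4, which are no receptors.

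Other receptors for cytokines, lipids, nucleotides and protons followed. Of 31 cytokine receptor chains, 13 were higher and 4 lower (median 0.76). Besides Ifngr1 and Il1r1, Ifnar1 rose by 1.59 ± 0.14 and Il21r by 1.30 ± 0.13. Il6ra fell by 2.21 (SE 0.19) and Tgfbr3, a coreceptor for TGF-beta, fell by 2.72 (SE 0.52). Of 26 G protein-coupled receptors, 13 were higher and 6 lower (median 0.63). Ednrb, a receptor for endothelins, measured 2325, 2226 and 3921 in synovium against 8.70, 2.89 and 0 in the nodes (9.67 ± 0.82). Adora2a, the second adenosine receptor of the list that rose beside Adora2b, measured 3231, 2254 and 3958 in synovium against 676, 631 and 752 in the nodes (2.16 ± 0.24). The proton-sensing Gpr65 rose by 1.51 ± 0.22 and Gpr132, a receptor for oxidized lipids, by 2.79 ± 0.17. Gpr34, which binds lysophosphatidylserine, measured 165, 71.6 and 155 in synovium against 1229, 1017 and 1329 in the nodes and fell by 3.26 (SE 0.29), and Gpr18 fell by 1.47 (SE 0.19).

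Many genes for secreted products of tissue repair and inflammation were higher. Of 17 growth and repair factors tested of 27 listed, 11 were higher and 1 lower (median 3.18). Calca, which encodes calcitonin and the neuropeptide CGRP, measured 1165, 1083 and 1808 in synovium against 0, 14.4 and 13.1 in the nodes (7.77 ± 0.97). Il1rn, the natural blocker of the IL-1 receptor, measured 652, 667 and 1165 in synovium against 34.8, 0 and 29.7 in the nodes (6.27 ± 1.41). Penk, the precursor of opioid peptides, measured 13274, 6509 and 16409 in synovium against 1544, 1682 and 1861 in the nodes (2.73 ± 0.29), without overlap like the other named members. Furin, the protease that matures TGF-beta, rose by 3.18 ± 0.38, while Wnt10a had no read in synovium against 80.0, 7.70 and 42.8 in the nodes. Without synovial library 3, or without node library 1, 7 of the 17 were called higher. Of 29 cytokines and TNF family ligands tested of 39 listed, 13 were higher and 3 lower (median 0.97). Cxcl2, a neutrophil chemoattractant, measured 959.7, 701 and 2648 in synovium against 5.22, 15.4 and 41.1 in the nodes (6.22 ± 0.89), Ccl5 rose by 2.95 ± 0.48 and Tnfsf9, the ligand of 4-1BB, by 2.76 ± 0.36. Lta, which encodes lymphotoxin alpha and is known for its role in lymphoid tissue, measured 127, 115 and 65.2 in synovium against 1391, 884 and 1083 in the nodes and fell by 3.47 (SE 0.26), and Il16 fell by 1.30 (SE 0.12). Without synovial library 1, 8 of the 29 were called higher. Of 20 proteases and matrix regulators, 9 were higher and 0 lower (median 2.06). Adam9 measured 1481, 2087 and 1906 in synovium against 141, 105 and 41.9 in the nodes (4.39 ± 0.92), Adam8 rose by 3.03 ± 0.59 and the granzyme B inhibitor Serpinb9 by 2.29 ± 0.34. The part of fibroblast RNA, highest in synovial library 3, in these genes was not tested.

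The core machinery of the antigen receptor moved in both directions. Of 41 genes, 12 were higher and 11 lower (median -0.088). With all libraries at 1 total they were 9 and 20, and under quantile normalization 9 and 20 too. The adaptor gene Sla rose by 1.56 ± 0.13, the ubiquitin ligase Cblb by 1.42 ± 0.17, and Malt1 and Bcl10, partners in the complex that links the receptor to NF-kappa B, by 1.56 ± 0.16 and 1.15 ± 0.17. Ptpn6 fell, as given above, and so did Dgka (-1.44 ± 0.10), a lipid kinase that dampens Ras signals, Prkcq (-1.38 ± 0.13), the kinase PKC theta, and Vav1 (-0.89 ± 0.097). Zap70 differed by -0.088 ± 0.11, adjusted p = 0.567. Of 33 PI3K, Akt and mTOR pathway genes, 7 were higher and 6 lower (median 0.21), 39.4% called beside 33.8% over all genes. The kinases Sgk1 and Sgk3 moved apart. Sgk1 measured 2799, 2710.0 and 2768 in synovium against 345, 944 and 444 in the nodes and rose by 2.39 ± 0.29, while Sgk3, at 36.3 ± 22.5 against 749 ± 92.9 (SD), fell by 4.59 (SE 0.47). Irs2 rose by 5.46 ± 1.12, Pik3ip1, a brake on PI3K, fell by 3.34 (SE 0.23), and Mtor differed by -0.48 ± 0.28, adjusted p = 0.212.

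Survival and stress genes changed by member. Of 17 BCL-2 family genes, 4 were higher and 3 lower (median -0.33), 41.2% called beside 33.8% over all genes. Opposite to Bcl2, the protective Bcl2l1 (BCL-XL) measured 4193, 4640.4 and 5002 in synovium against 503, 341 and 598 in the nodes (3.30 ± 0.29), and Pmaip1 (NOXA), which promotes death, measured 10792, 13205 and 11073 in synovium against 477, 730.3 and 729 in the nodes (4.20 ± 0.20). Mcl1 differed by -0.33 ± 0.15, adjusted p = 0.119. Bcl2a1b and Bcl2a1d rose too, but these near-identical copies can share reads. Of 32 heat shock chaperones, 17 were higher and 1 lower (median 0.91): Dnajb1 rose by 1.64 ± 0.22, Hsp90aa1 by 1.60 ± 0.20 and Bag3 by 2.39 ± 0.48, and their activator Hsf1 fell by 0.67 (SE 0.13). Of 27 genes of the unfolded protein and integrated stress response, 14 were higher and 1 lower (median 0.60). Ppp1r15a (GADD34), which restores translation after stress, measured 14512, 13892 and 18093 in synovium against 1329, 1125 and 992 in the nodes (3.75 ± 0.17). Ern1, the stress sensor IRE1 alpha, rose by 4.10 ± 0.66, Atf4 by 1.53 ± 0.22 and the chaperone Hspa5 (BiP) by 1.29 ± 0.11, while Ddit3 (CHOP) differed by 0.18 ± 0.19, adjusted p = 0.483. Of 27 genes of metal handling and oxidative stress, 12 were higher and 4 lower (median 0.65). Mt1 and Mt2 encode metallothioneins, which bind zinc: Mt1 measured 1116, 802 and 1682 in synovium against 8.70, 30.8 and 31.4 in the nodes (5.73 ± 0.76) and Mt2 116, 106 and 251 in synovium (6.57 ± 1.01). Srxn1, which repairs oxidized peroxiredoxins, rose by 3.65 ± 0.64, and Txnip, an inhibitor of thioredoxin and of glucose uptake, measured 1503, 1322 and 1328 in synovium against 5241, 5625 and 6821 in the nodes and fell by 2.08 (SE 0.16). Paws and nodes were both digested to free the cells. The part of sample handling in the stress genes was not tested.

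Genes of cell shape and transport were mixed. Of 52 cytoskeleton and migration genes, 21 were higher and 10 lower (median 0.38). Lmna, a nuclear lamin, measured 8636, 9660.1 and 8196 in synovium against 124, 234 and 191 in the nodes (5.63 ± 0.32), Tubb6, a beta tubulin, rose by 5.41 ± 0.71 and Anxa1, an annexin with anti-inflammatory activity, by 3.24 ± 0.51, while Tubb5, the main lymphocyte beta tubulin, fell by 0.89 (SE 0.092). Of 38 ion channels and pumps, 10 were higher and 5 lower (median 0.20), 39.5% called beside 33.8% over all genes. Atp2b4, a calcium pump, rose by 2.67 ± 0.30 and Orai1, the calcium channel of lymphocytes, by 1.99 ± 0.46. Atp1b1, a sodium pump subunit, measured 28.6, 11.7 and 0 in synovium against 337, 771 and 574 in the nodes and fell by 6.20 (SE 0.92). Exons of Atp1b1 overlap Nme7 on the other strand. Of 34 lysosome and autophagy genes, 13 were higher and 3 lower (median 0.34), or 10 and 9 with all libraries at 1 total and 9 and 6 under quantile normalization. Among the higher were the autophagy receptor Sqstm1 (2.12 ± 0.16) and Ulk1, the kinase that starts autophagy (2.14 ± 0.39). Of 376 solute carriers listed, 186 were tested, 43 were higher and 29 lower (median -0.033). Their share called, 38.7%, was near the 33.8% over all genes. Slco2b1, an organic anion carrier, measured 197, 175 and 242 in synovium and 0.870, 0 and 0 in the nodes (7.37 ± 0.92), and Slc17a9, which loads ATP into vesicles, measured 227, 196 and 244 in synovium against 1124, 943 and 1311 in the nodes and fell by 2.33 (SE 0.17).

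Genes of the cytoplasmic ribosome were lower as a block. Of 82 ribosomal protein genes tested, 72 were lower and 0 higher, with a median of -0.71 beside -7.25e-05 over all genes and 15.9% called lower. In every fit that left out 1 library 62 were called. All 86 listed genes, those below the filter included, made up 2.67%, 2.18% and 2.32% of the normalized total in synovial libraries 1, 2 and 3, against 4.87%, 5.08% and 4.77% in the arthritic nodes and 5.17%, 5.51% and 5.06% in the control nodes. The synovial shares did not reach the lowest node share. Rps19 measured 11045, 8278 and 8927 in synovium against 19603, 22630.2 and 19697 in the nodes and fell by 1.14 (SE 0.12), adjusted p = 1.37e-05. Rpl35 measured 7446, 7329 and 6276 in synovium against 12851, 15980.0 and 13362 in the nodes and fell by 1.00 (SE 0.12), Rps18 fell by 1.12 (SE 0.11) and Rplp0, of the ribosome's stalk, fell by 0.70 (SE 0.089). Under quantile normalization and with all libraries at 1 total, 77 were lower and 0 higher. Both alternatives moved the median of all genes down (-0.12 and -0.31), so they are no independent check of the fall. TMM scaling, which left that median at -0.023, gave 75 lower and 0 higher. Ribosomal messages are short and abundant, so genes like them in either respect are given beside them. Over 2089 other genes with exon lengths between the ribosomal quartiles, the median was -0.084 and 18.8% were called lower, and over 378 other genes at or above the ribosomal median level in the nodes it was 0.078 and 25.1%. Over all genes in classes of exon length, the median ran from -0.093 in the shortest class to 0.098 in the longest. Many ribosomal protein genes have processed copies in the genome, and the treatment of reads that fit several places is not given in the sources used here. Exons of Rps18 overlap Vps52, and those of Rpl35 Arpc5l, on the other strand.

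**Figure D4:**
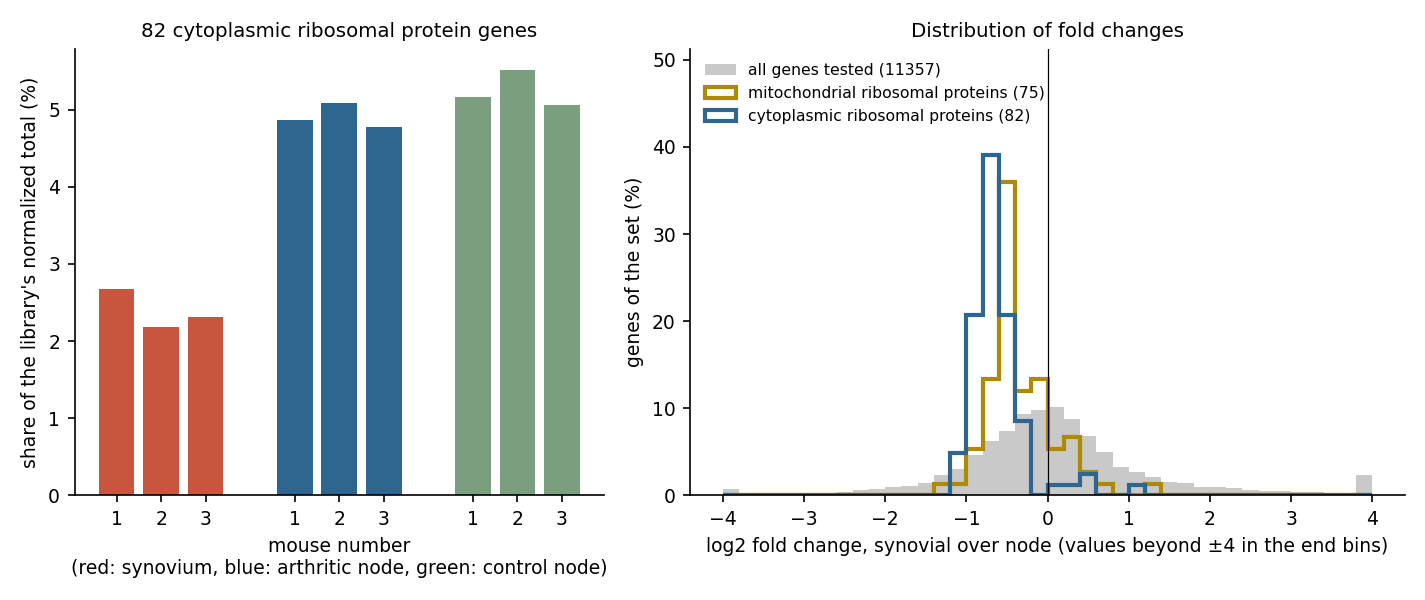
Left, share of each library's normalized total taken by the 86 listed cytoplasmic ribosomal protein genes, 1 bar per mouse (red synovium, blue arthritic node, green control node). The panel title gives the 82 tested. Right, distribution of log2 fold changes, synovial over node Tregs, as percent of all genes tested (grey) and of the cytoplasmic (blue line) and mitochondrial (ochre line) ribosomal protein genes. The 3 synovial bars, at 2.18% to 2.67%, are below all 6 node bars, and the blue line peaks below 0.

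Mitochondrial ribosomal proteins, the products of nuclear genes, followed in part: 32 of 75 were lower and 4 higher (median -0.43). Mrps18b measured 256, 130.3 and 176 in synovium against 436, 437 and 454 in the nodes and fell by 1.29 (SE 0.28), and Mrps27 fell by 1.17 (SE 0.27), while Mrps6, whose exons overlap Slc5a3 on the same strand, rose by 1.21 ± 0.22. Each arthritic library except synovial library 2, when left out, lowered the 32 to between 13 and 21. Of 46 proteasome genes, 1 was higher and 10 lower (median 0.0079), 23.9% called beside 33.8% over all genes. The lower ones included the 3 catalytic subunits of the immunoproteasome, Psmb8 (-0.67 ± 0.13), Psmb9 (-0.82 ± 0.11) and Psmb10 (-1.08 ± 0.12), and the assembly chaperones Psmg1, Psmg2 and Psmg4. The constitutive counterparts Psmb5 and Psmb6 differed by -0.061 ± 0.15, adjusted p = 0.789 and 0.074 ± 0.11, adjusted p = 0.656. Of 76 nuclear respiratory chain subunits, 6 were higher and 7 lower (median -0.035), 17.1% called beside 33.8% over all genes. That split turned to 0 and 44 with all libraries at 1 total and to 0 and 27 under quantile normalization. With the mouse as a block they were 2 and 5, and by edgeR 2 and 6. Leaving out synovial library 1 or node library 1 or 3 left 2 higher, node library 2 left 3 higher, and node library 3 left 3 lower.

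Chromatin regulators showed no common direction. Of 43 chromatin and DNA methylation enzymes, 12 were higher and 7 lower (median -0.065), or 6 and 15 with all libraries at 1 total. Their share called was 44.2%, beside 33.8% over all genes. Without node library 1 or 2, 4 were lower. Kdm6b, a demethylase that removes the repressive H3K27 mark, measured 3335, 5468 and 2759 in synovium against 310.5, 330.0 and 349 in the nodes (3.48 ± 0.22), and Tet2, which starts DNA demethylation, rose by 1.00 ± 0.20. Kat2b, an acetyltransferase, fell by 1.13 (SE 0.19), and Dnmt3a differed by -0.53 ± 0.19, adjusted p = 0.0511. Exons of Kdm6b overlap its antisense partner Kdm6bos. Genes named Zfp, mostly zinc finger repressors, had 46 of 273 lower and 16 higher (median -0.24), and 28 lower without node library 1 or 2. The share lower was near the 15.9% over all genes. Zfp948 measured 1003, 1151 and 874 in synovium against 269.6, 249 and 220.1 in the nodes and rose by 2.03 ± 0.23, while Zfp345 had no read in synovium against 36.5, 23.1 and 29.7 in the nodes. Of 8 Gimap genes, GTPases of lymphocyte survival, 3 were lower and 0 higher (median -0.27), 37.5% called beside 33.8% over all genes. Gimap9 (-0.71 ± 0.15) and Gimap4 (-0.66 ± 0.13) led them.

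**Figure D5:**
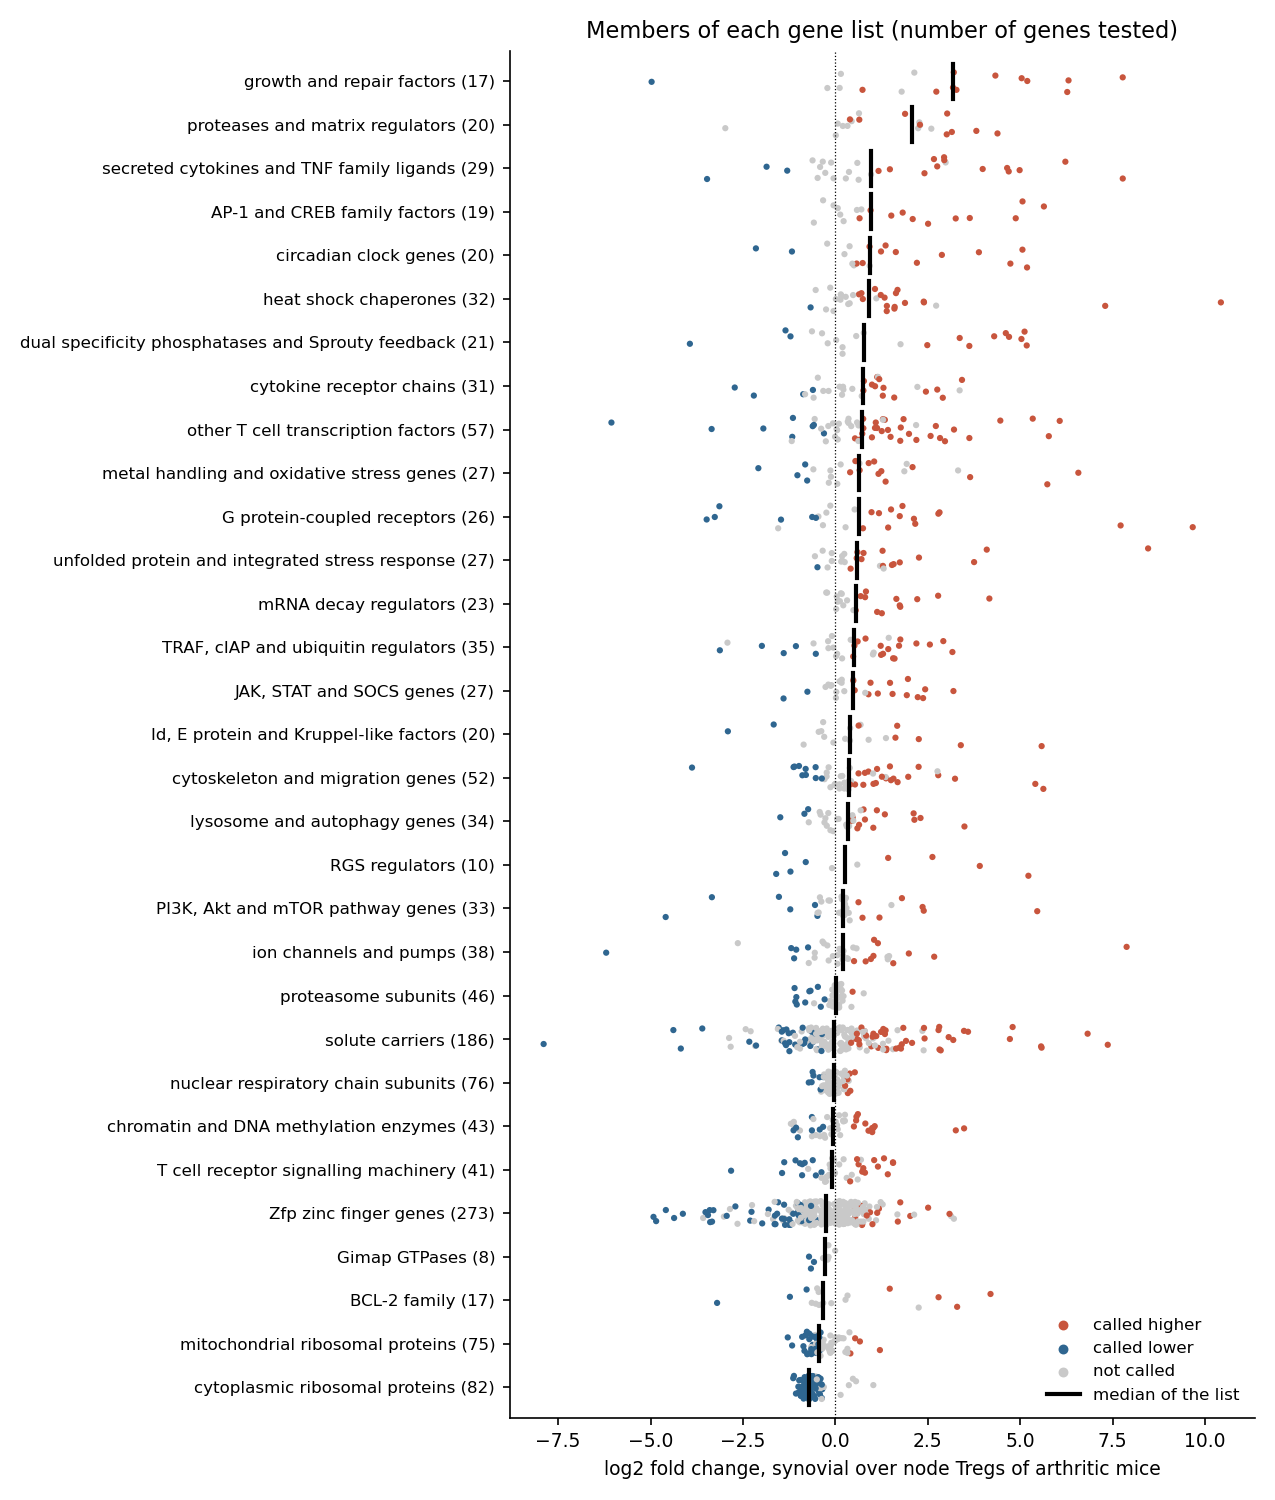
Log2 fold change, synovial over node Tregs of arthritic mice, of each tested member of 31 gene lists, ordered by the list's median (black bar), with the number of genes tested in brackets. Red members are called higher, blue lower and grey not called, and the dotted line is the median of all genes. Growth and repair factors lie highest and cytoplasmic ribosomal proteins lowest, the latter in a narrow band.

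Spread differed between groups in ways that depended on the measure. Over 9467 genes whose synovial and node means summed to at least 100, the median SD of log2 values was 0.269 among synovial, 0.213 among arthritic node and 0.242 among control node libraries. The 90th percentile of those SDs was 0.673, 0.623 and 0.747, highest in the control nodes. Tnfrsf9, for one, was 47838, 39265 and 81862 in synovium and 2816, 3166 and 2520.2 in the nodes. Of the called genes with the largest synovial spread, Cnn3, an actin-binding gene, measured 18.7, 0 and 111 in synovium against 321, 493 and 335 in the nodes and fell by 4.85 (SE 1.18), a call that DESeq2 did not make (adjusted p = 0.127).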

How the data were processed

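RNA was sequenced from sorted Tregs, 3 libraries in each of 3 groups, and groups and mouse numbers came from the titles. The submitters' processing notes name HISAT2, HTSeq, DESeq2 and mm10. Their versions, the annotation and the strand setting are not given in the sources used here, though the kit was a directional one. The authors deposited a normalized signal per gene: whole multiples of 1 constant per library, 100% of values within 0.01, so reads were recovered. The recovered reads numbered 11844390 to 12855435 in the 6 arthritic libraries, and 3 reads, the floor for genes at 0, were worth 2.61 to 3.52 normalized. Floors cover counting error only.

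limma 3.58.1 in R 4.3.3 (lmFit, eBayes with trend) was fitted to log2(value + 1) of the 11357 genes averaging 10 or more across the 9 libraries, with 1 estimate of spread for the 3 groups. P-values were two-sided and adjusted by Benjamini-Hochberg over the 11357 genes. Because 1 was added, fold changes of low genes are understated. edgeR 4.0.16 and DESeq2 1.42.0 were run on the recovered reads of the 6 arthritic libraries. Scripts were tested on simulated data. The comparison, its members and the gene lists were chosen with earlier results of these data known. Named genes were the 10 with the largest change in mean value and the 8 with the smallest p in each direction, genes with no read in one group and a mean of 50 or more in the other, the 10 most abundant per exon length, up to 4 members of each list and direction, and up to 6 called genes with the largest synovial spread; list members could also be named with their values. Not every gene the rules permit is given. The mitochondrially encoded genes were not analysed here. Positions and exon lengths are from GENCODE vM21 on GRCm38, matched by symbol.

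By the titles the mouse number pairs synovial and node libraries. Across genes, deviations from the group means correlated between a mouse's 2 libraries at 0.024, 0.054 and 0.089; each synovial library correlated best with its own number, but node library 1 correlated at 0.041 with synovial library 2. A fit of the 6 libraries with the mouse as a block was an alternative, as were other pseudocounts (0.5, 5), filters (none, 50), variance models, scalings, tests, a 2-fold threshold and leaving out each library.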

Additional observations from a re-analysis of the deposited data

How the results depend on the processing

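The 3844 calls were 3039 to 3895 when each library was left out in turn (1699 to 2083 higher, 1340 to 1812 lower), 3608 by edgeR and 4026 by DESeq2. With the mouse number as a replicate block they were 3776, 2119 higher and 1657 lower, and 3499 of these were shared with the unblocked calls in the same direction. Requiring at least 2-fold left 2146, 1245 higher and 901 lower. Scaling moved the balance most: quantile normalization gave 1711 higher and 2344 lower (42.2% higher against 52.9%, median of all genes -0.12), and scaling to the library total gave 1379 higher and 3324 lower (29.3% higher, median -0.31). Under that scaling 54 mitochondrial ribosomal, 23 proteasome, 84 Zfp and 53 solute carrier genes were lower, against 32, 10, 46 and 29. The counts lower became 10 for G protein-coupled receptors, 10 for channels and 10 for PI3K genes, against 6, 5 and 6, and 8 against 4 for metal genes. Differences of uncalled genes changed sign, with these log2 values, under library weights (Cd3e 0.0081, Dusp6 -0.070, Psmb5 0.00055), under quantile normalization (Creb1 -0.10, Dusp6 -0.023, Irf1 -0.17, Psmb6 -0.22), under scaling to the library total (Creb1 -0.18, Ddit3 -0.13, Dusp6 -0.29, Irf1 -0.27, Psmb6 -0.24), under TMM scaling (Dusp6 -0.0023), under leaving out 1 library (B3galt6 -0.41 to 0.21, Cd3e -0.096 to 0.089, Dusp6 -0.32 to 0.28, Irf1 -0.12 to 0.24, Psmb6 -0.031 to 0.14). Differences near 0 cannot be placed on either side at 3 mice per group, and depth limits genes at 0 to the floor of 3 reads.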
